A study of Mus musculus with 24 samples.

Results

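Metallothioneins are small, cysteine-rich proteins that bind zinc and copper, buffer free metal and take up oxidants. In mouse, Mt1 and Mt2 are made in many tissues and in brain mainly by astrocytes, whereas Mt3 is largely a brain form, found in neurons and astrocytes. Zinc raises Mt1 and Mt2 through the metal-responsive factor encoded by Mtf1, which binds metal response elements (MREs) in promoters. The same factor acts on Slc30a1, which encodes the zinc exporter ZnT1 of the plasma membrane, and Mt1 and Mt2 are also known targets of glucocorticoids. Described here are the rows of the prefrontal cortex (PFC) table whose gene symbol is Mt1, Mt2, Mt3, Mtf1 or Slc30a1. All 5 were present among the 14074 genes of the table, and a further family member, Mt4, was not analysed here.

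The 24 libraries came from 24 male C57BL/6 mice, 4 in each of 6 groups. Control mice, mice with a passive coping strategy (PS) and mice with an active coping strategy (AS) received saline or the synthetic glucocorticoid dexamethasone (DEX, 2 mg/kg), and PFC tissue was taken 6 h later. PS and AS mice had gone through 30 days of chronic social defeat stress and were separated by how they behaved towards an aggressor, so that PS and AS are behavioural classes of stressed animals and not assigned treatments. Control mice were not defeated and were kept singly before the experiment, and the labels name no genetic change in any mouse. Age is not given in the labels. The libraries were made from poly(A) RNA of whole tissue, so that a lower level of a gene can mean fewer cells of a type or less RNA per cell, and these cannot be told apart.

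Depth ran from 21121869 to 59439645 reads on genes (median 24420130), and the lowest count of any of the 5 genes in any library was 602 reads. Median depth was 34242532 in the AS saline and 37876626 in the AS DEX group, against 22869703 to 24187702 in the control and PS groups. Comparisons of AS with the other phenotypes thus also differ in depth. Fkbp5, a glucocorticoid-induced gene used as a check of the DEX labels, lay between 761 and 1088 normalized counts in saline libraries and between 2931 and 4198 in DEX libraries, and every library matched its label. Of the cell type marker lists, 12 astrocyte, 10 endothelial, 6 mural, 8 microglial, 6 oligodendrocyte, 5 pyramidal neuron and 6 GABAergic neuron genes were all detected, and 0 of 5 choroid plexus and ependymal genes were in the table.

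The metallothionein genes lie side by side on chromosome 8 (GRCm38), on the plus strand, in the order Mt3, Mt2, Mt1. Mt3 (ENSMUSG00000031760.9) spans chr8:94152607-94154146, Mt2 (ENSMUSG00000031762.7) chr8:94172664-94173568 and Mt1 (ENSMUSG00000031765.8) chr8:94179082-94180327, all protein coding. Mt3 and Mt2 are 18517 bases apart, and Mt2 and Mt1 are 5513 bases apart. Mtf1 (ENSMUSG00000028890.13) lies at chr4:124802104-124849800 and Slc30a1 (ENSMUSG00000037434.7) at chr1:191906767-191913247. The transcripts of Mt1, Mt2 and Mt3 shared 0 words of 50 bases with transcripts of other genes, so that their reads could be told apart from one another. Mt2 is overlapped by an antisense gene, Gm45774, Slc30a1 by the antisense gene 1700034H15Rik, and Mtf1 by 1110065P20Rik on the minus strand and by an rRNA gene, n-R5s192, on its own strand. The libraries kept strand, but the strand setting of the counting is not given in the sources used here, so that reads of these genes and of a partner on the opposite strand cannot be told apart, nor those of Mtf1 and n-R5s192 where they overlap.

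The promoters of these neighbours are shown because Mt1 and Mt2 responded to DEX and Mt3, in the same cluster, was not called. Each line holds the 250 bases before the RefSeq transcript start and the first 50 bases after it (RefSeq, GRCm38.p6, plus strand), at chr8:94178839-94179138 for Mt1, chr8:94172368-94172667 for Mt2 and chr8:94152357-94152656 for Mt3. Capitals mark letters of the MRE type, TGCACNC or TGCGCNC on either strand, and, in Mt1, the leftmost run in capitals, a match to GNACANNNTGTNC, the palindromic half-site pair that glucocorticoid receptors bind.
Mt1: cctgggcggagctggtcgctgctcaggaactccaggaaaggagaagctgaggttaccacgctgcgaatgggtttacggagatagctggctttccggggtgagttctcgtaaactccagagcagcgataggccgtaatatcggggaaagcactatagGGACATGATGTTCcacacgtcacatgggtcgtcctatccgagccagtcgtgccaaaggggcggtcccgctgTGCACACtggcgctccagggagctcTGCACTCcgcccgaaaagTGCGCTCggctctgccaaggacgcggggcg
Mt2: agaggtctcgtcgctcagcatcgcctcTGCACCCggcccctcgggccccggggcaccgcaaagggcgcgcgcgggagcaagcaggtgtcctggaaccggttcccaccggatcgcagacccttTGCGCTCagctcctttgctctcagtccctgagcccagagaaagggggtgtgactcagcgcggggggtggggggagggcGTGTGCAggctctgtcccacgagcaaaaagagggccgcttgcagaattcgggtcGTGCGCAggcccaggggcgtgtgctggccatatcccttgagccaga
Mt3: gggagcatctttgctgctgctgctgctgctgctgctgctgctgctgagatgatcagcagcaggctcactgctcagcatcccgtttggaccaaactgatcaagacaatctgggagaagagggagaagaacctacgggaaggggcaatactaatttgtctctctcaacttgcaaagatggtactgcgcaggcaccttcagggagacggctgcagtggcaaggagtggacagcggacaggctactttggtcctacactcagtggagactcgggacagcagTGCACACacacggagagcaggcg

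Mt2 held 4 MRE-type matches, Mt1 held 3 and Mt3 held 1, while Slc30a1 had 2 and Mtf1 had 0 in windows of the same kind. Of 27025 promoter windows of this length, 25.6% held at least 1 such match, 1.32% at least 3 and 0.281% at least 4. In Mt1 the matches read TGCACAC from position -23, TGCACTC from position 3 and TGCGCTC from position 21, counted from 1 at the RefSeq start with no position 0. The half-site pair of Mt1, GGACATGATGTTC, began at position -94, and 0.463% of the windows held such a match. None was found in the windows of the other 4 genes. Transcript starts differ between annotations, since 2 of 3 GENCODE transcripts of Mt1 begin 122 and 152 bases downstream of the RefSeq start and those of Mt2 begin 46 and 242 bases downstream, so that the windows hold only part of the sequence before those starts. These matches are letters in a window and were not tested for binding.

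Read per kilobase of the first listed transcript of each gene (normalized count divided by its length), Mt3 mRNA was the most abundant in saline libraries at 9893 ± 1497 (SD, n = 12), before Mt1 at 5506 ± 484 and Mt2 at 3055 ± 415, and these ranges did not overlap. Slc30a1 at 186 ± 13.6 and Mtf1 at 110 ± 7.11 per kilobase were far lower. In DEX libraries Mt3 stood at 9952 ± 1758, Mt1 at 8474 ± 1496 and Mt2 at 6082 ± 1096 per kilobase (n = 12). Their ranges then overlapped, with Mt1 from 6658 to 11075 and Mt3 from 6978 to 12696. The order depends on the length used. Per kilobase of all annotated exons of a gene, Mt3 stood at 4974, Mt2 at 2655 and Mt1 at 2426 in saline libraries, and Mt2 at 5285, Mt3 at 5004 and Mt1 at 3734 in DEX libraries.

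The first question was whether DEX changed the metallothionein system in the PFC of unstressed and stressed mice. Mt1 and Mt2 rose with DEX in all 3 phenotypes, Mt2 by the larger fold, whereas Mt3, Mtf1 and Slc30a1 were not called in any of them. Values below are normalized counts, that is, reads divided by the size factor of the library, and a gene was called where limma's Benjamini-Hochberg adjusted p over all 14074 genes was under 0.1. DEX called 2 of 5 genes higher and 0 lower in control mice, against 4.03% of all genes called higher. The same 2 of 5 were called higher in PS mice, where 2.74% of all genes were, and in AS mice, where 3.82% were.

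Mt1 in control mice was 2575, 2971, 3140 and 3329 with saline and 3920, 4201, 5420 and 6080 with DEX. In PS mice it was 2615, 2754, 3138 and 3301 with saline and 3655, 4008, 4287 and 5448 with DEX. In AS mice it was 2903, 3022, 3195 and 3329 with saline and 4030, 4040, 5152 and 5582 with DEX. Every DEX library lay above every saline library of its phenotype, and also above all 12 saline libraries, the highest saline value being 3329 and the lowest DEX value 3655. Groups separated in this direction for 5.81% of all genes in control, 5.54% in PS and 4.0% in AS mice. The rise was 1.61-fold in control (95% interval 1.33 to 1.96, adjusted p = 0.00222), 1.46-fold in PS (1.21 to 1.78, adjusted p = 0.0183) and 1.5-fold in AS mice (1.23 to 1.82, adjusted p = 0.00954).

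Mt2 in control mice was 1168, 1388, 1571 and 1583 with saline and 2785, 2846, 3312 and 4221 with DEX. In PS mice it was 1220, 1544, 1735 and 1804 with saline and 2384, 2657, 2848 and 3563 with DEX. In AS mice it was 1498, 1707, 1726 and 1788 with saline and 2651, 2749, 3422 and 3856 with DEX. The gap was wider than for Mt1, since the highest of the 12 saline libraries read 1804 and the lowest of the 12 DEX libraries read 2384. Mt2 rose 2.29-fold in control (95% interval 1.85 to 2.83, adjusted p = 9.94e-06), 1.82-fold in PS (1.47 to 2.24, adjusted p = 0.000678) and 1.87-fold in AS mice (1.51 to 2.31, adjusted p = 0.000371). Among the genes called higher with DEX, Mt2 ranked 40 of 567 by fold in control, 55 of 386 in PS and 55 of 537 in AS mice, and Mt1 ranked 158, 147 and 133. Averaged over the 3 phenotypes, Mt1 rose 1.52-fold (1.4 to 1.7, adjusted p = 3.96e-06) and Mt2 1.98-fold (1.75 to 2.24, adjusted p = 8.95e-09), where 7.46% of all genes were called higher.

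**Figure D1:**
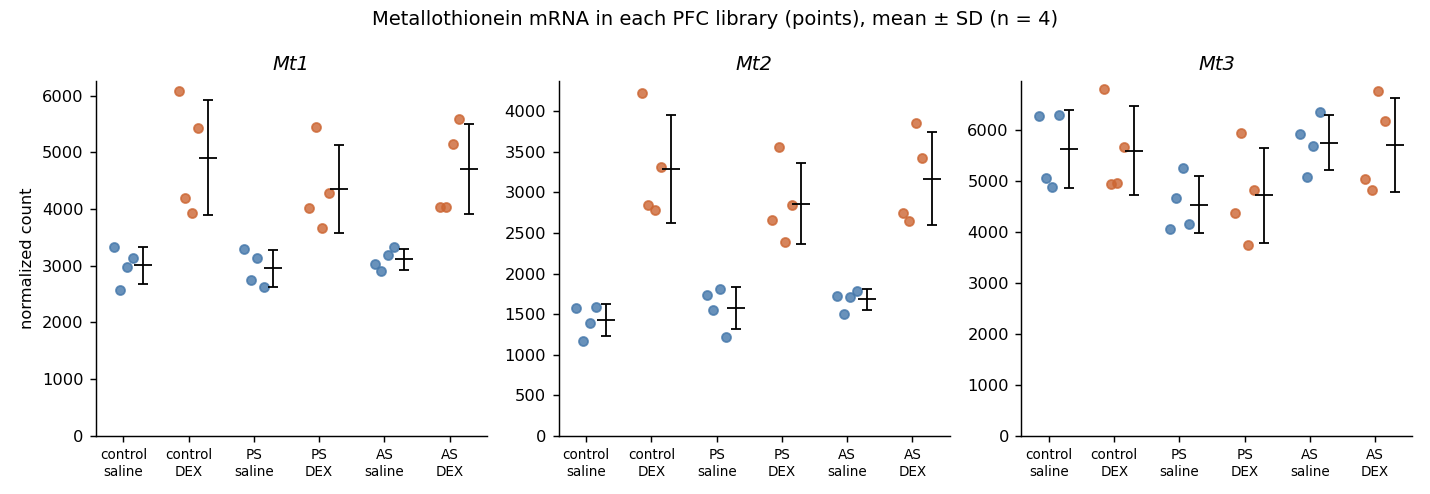
Normalized counts of Mt1, Mt2 and Mt3 in the 24 PFC libraries, 4 points per group, with black bars for the group mean ± SD; saline groups are blue and DEX groups orange. For Mt1 and Mt2 all DEX libraries lie above all saline libraries (lowest DEX value 3655 against highest saline value 3329 for Mt1, 2384 against 1804 for Mt2), while the Mt3 groups overlap between 3740 and 6805.

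Mt3, unlike its neighbours, was not called with DEX. In control mice it was 4880, 5047, 6266 and 6294 with saline and 4943, 4955, 5658 and 6805 with DEX. In PS mice it was 4057, 4161, 4661 and 5261 with saline and 3740, 4365, 4815 and 5944 with DEX. In AS mice it was 5066, 5678, 5917 and 6346 with saline and 4827, 5029, 6168 and 6759 with DEX. Saline and DEX libraries overlapped in each phenotype. The DEX fold averaged over phenotypes was 1.0 with a 95% interval of 0.896 to 1.12, so that an average rise as large as that of Mt1 or Mt2 lies outside the interval.

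Mtf1 also showed no called difference with DEX, at 851 ± 62.0 (SD, n = 4) with saline and 860 ± 63.4 with DEX in control mice, 873 ± 31.8 and 872 ± 34.9 in PS mice and 796 ± 41.2 and 845 ± 69.1 in AS mice. Its averaged fold was 1.02 (95% interval 0.965 to 1.08). Over all 24 libraries Mtf1 ran only from 736 to 939. Slc30a1, the zinc exporter that shares this factor with Mt1 and Mt2, had an averaged DEX fold of 0.981 (95% interval 0.932 to 1.03), with the values of each library given further on.

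Markers of other cells moved with DEX beside these results. DEX called 4.03% of all genes higher and 2.46% lower in control, 2.74% and 2.62% in PS, and 3.82% and 4.95% in AS mice. Of 12 astrocyte markers, 3 were called higher and 0 lower with DEX in control, 3 higher and 1 lower in PS, and 2 higher and 2 lower in AS mice, with Gjb6 and Fgfr3 higher in each. Their summed normalized counts overlapped between saline and DEX, from 118992 to 142188 against 132432 to 157738 in control, 127316 to 147252 against 117181 to 136032 in PS, and 125499 to 153797 against 120421 to 154846 in AS mice. Of 10 endothelial markers, 1 was called higher in control, 1 higher and 2 lower in PS, and 5 lower in AS mice, and their sum in AS mice was 8449 to 13181 with saline and 6996 to 10071 with DEX. Of 8 microglial markers, P2ry12 and Aif1 were lower in all 3 phenotypes, and their sum in AS mice was 11476 to 12219 with saline and 9332 to 11120 with DEX. In median, the summed astrocyte and endothelial levels stood higher with DEX in control mice and lower in stressed mice, with overlapping ranges in each phenotype. The medians of the microglial and mural sums went the same way, and those of the oligodendrocyte sums went the opposite way. The microglial sums overlapped in control mice but not in AS mice or in PS mice (10669 to 11357.5 with saline, 9404 to 10299 with DEX). The mural sums overlapped in control and PS mice but not in AS mice (4610 to 7996 with saline, 3621 to 4569 with DEX). Of 6 mural markers, 0 were called in control or PS mice and 3 were called lower in AS mice. The part of these markers in the rise of Mt1 and Mt2 was not tested.

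The ratio of Mt1 to Mt2 was also taken within each library, where differences in scaling between libraries cancel. It sets the rises of both genes against each other in the same libraries, so that it is no evidence independent of them. In control mice the Mt1 to Mt2 ratio of normalized counts ran from 1.98 to 2.2 with saline and from 1.41 to 1.64 with DEX. In PS mice it ran from 1.74 to 2.14 with saline and from 1.51 to 1.53 with DEX, and in AS mice from 1.75 to 1.94 and from 1.34 to 1.63. No DEX library reached the lowest saline library, with 1.64 as the highest of 12 DEX ratios and 1.74 as the lowest of 12 saline ratios. The mean log2 ratio fell by 0.50 in control, by 0.31 in PS and by 0.32 in AS mice (two-sided exact permutation p = 0.0286 for each, adjusted p = 0.0286 over the 3 phenotypes), which is the smallest p that 4 against 4 libraries allow. Over all phenotypes, permuting within phenotype, it fell by 0.38 (exact permutation p = 5.83e-06, the smallest that 343000 splits allow, and lower in 12 of 12 DEX libraries than in any saline library).

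The Mt2 to Mt3 ratio lay between 0.231 and 0.428 in the saline libraries and between 0.547 and 0.637 in the DEX libraries. The Mt1 to Mt3 ratio lay between 0.499 and 0.814 with saline and between 0.762 and 0.977 with DEX, so that here the treatments overlapped. The overlap came from 1 PS saline library, at 0.814, while the other PS saline libraries ran from 0.591 to 0.629. In saline libraries the Mt1 to Mt2 ratio averaged 2.11 ± 0.0922 (SD, n = 4) in control, 1.89 ± 0.181 in PS and 1.85 ± 0.0777 in AS mice; this difference between phenotypes was not tested.

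**Figure D2:**
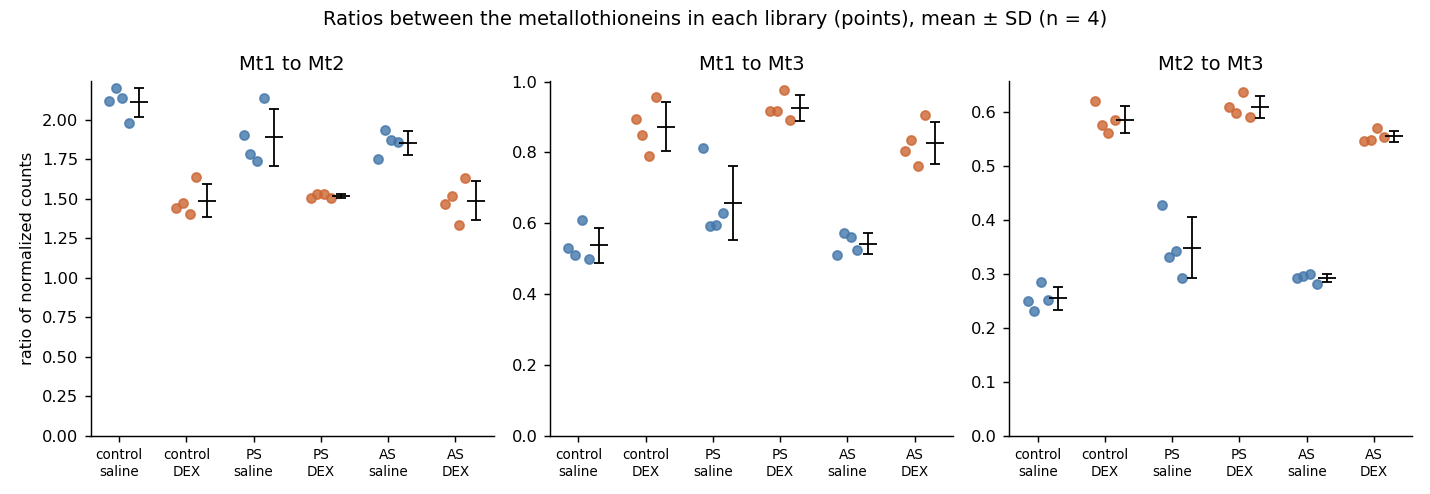
Ratios of normalized counts between Mt1, Mt2 and Mt3 in each of the 24 libraries (4 points per group), with black bars for the mean ± SD; saline is blue and DEX orange. The Mt1 to Mt2 ratio is 1.74 to 2.2 in saline and 1.34 to 1.64 in DEX libraries, and the Mt2 to Mt3 ratio is 0.231 to 0.428 in saline and 0.547 to 0.637 in DEX libraries.

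The second question was whether chronic stress and coping strategy changed the basal levels. None of the 5 genes was called with limma in PS against control saline libraries (1.51% of all genes called), in AS against control (0.156%) or in AS against PS (0.0% of all genes). Unadjusted limma p was under 0.05 for 2 of 5 genes, Mt3 and Slc30a1, in PS against control, as for 1850 of all 14074 genes. The same 2 genes had such a p in AS against PS, and 0 genes in AS against control. Nothing particular to the 5 genes is read from these counts. edgeR and DESeq2 also called 0 of 5 in each of these comparisons. The PS to control fold with saline was 0.983 (95% interval 0.810 to 1.19) for Mt1 and 1.1 (0.89 to 1.4) for Mt2, and the AS to control fold was 1.04 (0.857 to 1.26) and 1.18 (0.957 to 1.46).

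Mt3 was lowest in the PS groups, at 4535 ± 551 with saline, against 5622 ± 763 in control and 5752 ± 534 in AS mice (SD, n = 4). The PS to control fold was 0.808 (95% interval 0.666 to 0.980, adjusted p = 0.324), and the AS to PS fold was 1.27 (1.05 to 1.54, adjusted p = 0.934). Neither passed the threshold, and the groups overlapped. With DEX the PS to control fold of Mt3 was 0.839 (0.691 to 1.02, adjusted p = 0.407). Among DEX libraries, limma called 0 of 5 genes in PS against control (0.199% of all genes called), in AS against control (0.867%) and in AS against PS (0.0%). Slc30a1 in AS against control was the 1 member with an unadjusted p under 0.05 there, and edgeR and DESeq2 again called 0 of 5. The share of all genes with such a p is not given here, and nothing is read from that count.

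Slc30a1 separated PS from the other phenotypes among saline libraries, although it was not called. It was 916, 919, 921 and 957 in control, 1032, 1045, 1058 and 1092 in PS, and 844, 969, 971 and 979 in AS mice. Each PS library lay above each control and each AS library, a separation seen for 5.15% of all genes in PS above control and for 2.36% in AS below PS. The PS to control fold was 1.14 (95% interval 1.04 to 1.25, adjusted p = 0.178), and the AS to PS fold was 0.889 (0.813 to 0.972, adjusted p = 0.934). Fitted on the saline control and PS libraries alone the difference passed the threshold (adjusted p = 0.0970), with the same fold. Of 32 alternative settings this was the only 1 that called it.

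With DEX, Slc30a1 was 954, 1025, 1028 and 1030 in control, 863, 970, 1012 and 1023 in PS, and 826, 885, 904 and 960 in AS mice. The DEX fold was above 1 in control and below 1 in stressed mice, at 1.09 in control (95% interval 0.994 to 1.19, adjusted p = 0.375), 0.914 in PS (0.835 to 0.999, adjusted p = 0.357) and 0.951 in AS mice (0.869 to 1.04, adjusted p = 0.621). In PS mice all DEX libraries lay below all saline libraries, as for 4.57% of all genes. The difference of the DEX responses, PS minus control, was -0.25 on the log2 scale (95% interval -0.43 to -0.07, adjusted p = 0.367), and AS minus control was -0.19 (-0.38 to -0.01, adjusted p = 0.336). Neither passed the threshold.

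**Figure D3:**
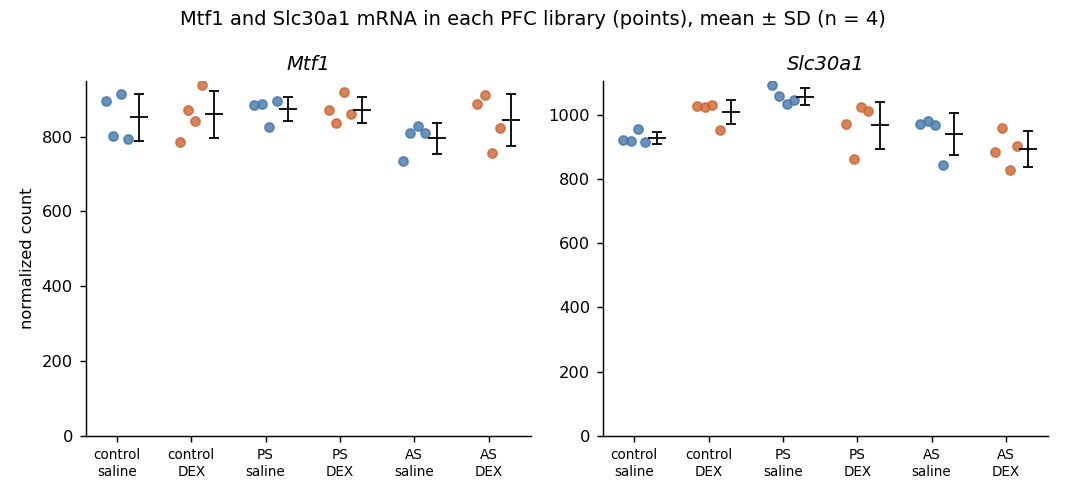
Normalized counts of Mtf1 and Slc30a1 in the 24 libraries (4 points per group), with black bars for the mean ± SD; saline is blue and DEX orange. Slc30a1 in PS saline libraries (1032 to 1092) lies above control saline (916 to 957) and AS saline libraries (844 to 979), and Mtf1 overlaps across all groups.

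The third question was whether stress changed the response of these genes to DEX. None of the 5 was called in the difference of DEX responses with limma, whether PS against control (0.0% of all genes called), AS against control (0.348%) or AS against PS (0.0%). Slc30a1 was the 1 gene of the 5 with an unadjusted p under 0.05 in PS minus control and in AS minus control. The share of all genes with such a p is not given here, and nothing is read from that count. With edgeR and DESeq2, 0 of 5 were called. The response of Mt2 was smaller in stressed mice by a log2 difference of -0.33 for PS (95% interval -0.76 to 0.10, adjusted p = 0.621) and -0.29 for AS mice (-0.72 to 0.14, adjusted p = 0.582). That of Mt1 differed by -0.14 (-0.54 to 0.25) and -0.11 (-0.50 to 0.29). These intervals hold 0, and they also hold a fall of more than 0.5 in log2 response, so that a moderate difference is not excluded with 4 mice per group.

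**Figure D4:**
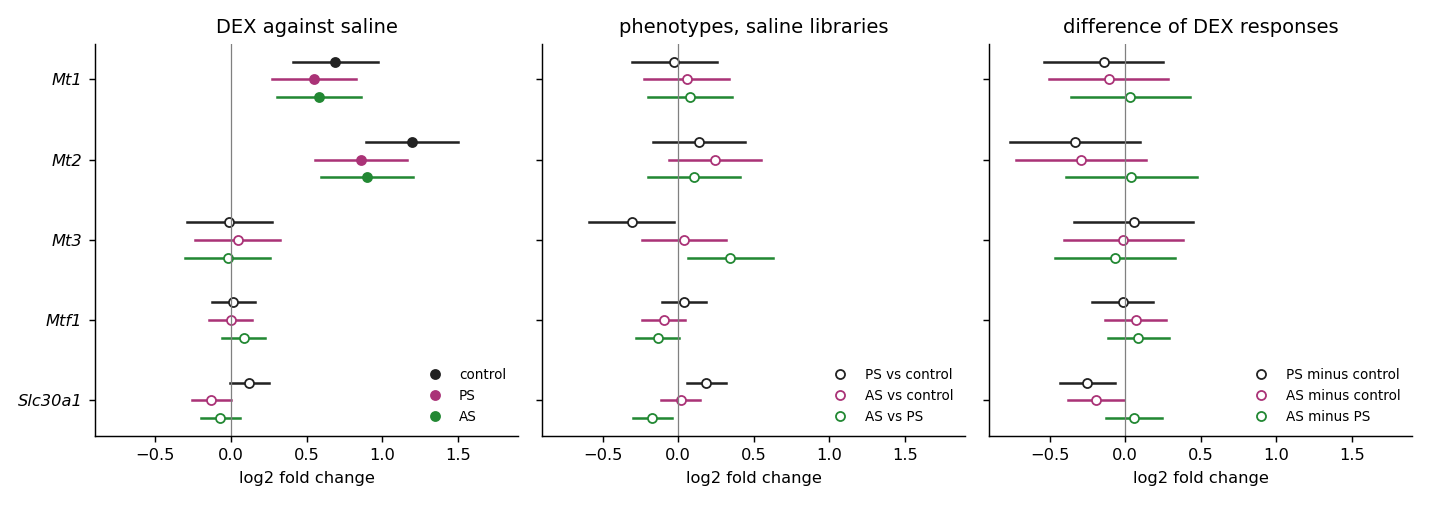
Log2 fold changes of the 5 genes with 95% intervals from the limma fit, for DEX against saline in each phenotype (left), between phenotypes in saline libraries (centre) and for differences of DEX responses (right); filled points have an adjusted p under 0.1. The filled points are Mt1 (0.55 to 0.69) and Mt2 (0.86 to 1.19) in the left panel, and no point is filled in the other panels.

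The spread between mice of one group was itself shared by the metallothioneins. The SD within groups, on the log2 scale, was 0.21 for Mt1, 0.23 for Mt2 and 0.21 for Mt3, wider than for 92.2%, 94.7% and 92.3% of 8232 well expressed genes (mean over 500), whose median was 0.12. For Mtf1 it was 0.09 and for Slc30a1 0.08, and for these less abundant genes counting error is part of that spread. After each gene was centred on its group means, Mt1 and Mt2 varied together over the 24 libraries (Pearson r = 0.92, Spearman rho = 0.91, permutation p within groups = 1e-05 for both, the smallest that 100000 permutations give, adjusted p = 0.0001 over 10 pairs). Without the 2 libraries farthest from the median, r was 0.89.

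Mt3, which was not called with DEX, varied with both of them within groups, with r = 0.88 for Mt2 (rho = 0.84, permutation p = 3e-05 and 6e-05, adjusted p = 0.00015 and 0.0003) and r = 0.82 for Mt1 (rho = 0.76, permutation p = 0.00018 and 0.00059, adjusted p = 0.0006 and 0.00197). Leaving out the 2 farthest libraries gave 0.88 and 0.74. Slc30a1 went the other way, with r = -0.64 against Mt3 (rho = -0.61, permutation p = 0.00421 and 0.00473, adjusted p = 0.0105 and 0.0118, and -0.50 without 2 libraries). Mtf1 likewise had r = -0.60 against Mt3 (rho = -0.62, permutation p = 0.00933 and 0.00901, adjusted p = 0.0187 and 0.018, and -0.57 without 2 libraries). Against Mt2, r was -0.51 for Mtf1 and -0.46 for Slc30a1 (adjusted permutation p = 0.0488 for each), and against Mt1 it was -0.32 (adjusted p = 0.24) and -0.47 (adjusted p = 0.0491), with the rank correlations of these 4 pairs less clear (adjusted p from 0.0548 to 0.274). Mtf1 and Slc30a1 had r = 0.26 with each other (adjusted permutation p = 0.253).

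Other measures moved with this shared spread. Over the same 24 centred libraries, given as a description, the summed microglial markers had r = 0.75 with Mt1, 0.72 with Mt2 and 0.64 with Mt3, and the summed blood markers had r = 0.57, 0.67 and 0.63. The summed astrocyte markers had r = 0.13, -0.08 and -0.21 with Mt1, Mt2 and Mt3, and log2 depth had r = -0.26, -0.22 and -0.13. The genes most like Mt3 within groups included Tsc22d4 (r = 0.93) and Rpl29 (r = 0.93). Those most like Mt1 were Gstm1 (r = 0.93), Mt2, the microglial gene C1qb (r = 0.90) and Eef1a1 (r = 0.89). Those most like Mt2 included Mt1, C1qb (r = 0.92), Apoe (r = 0.91) and Rplp0 (r = 0.89). Genes outside the family thus shared this spread as closely as its members did. The ranking was made after the values were seen. The part of depth, marker levels or RNA quality in this shared spread was not tested.

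**Figure D5:**
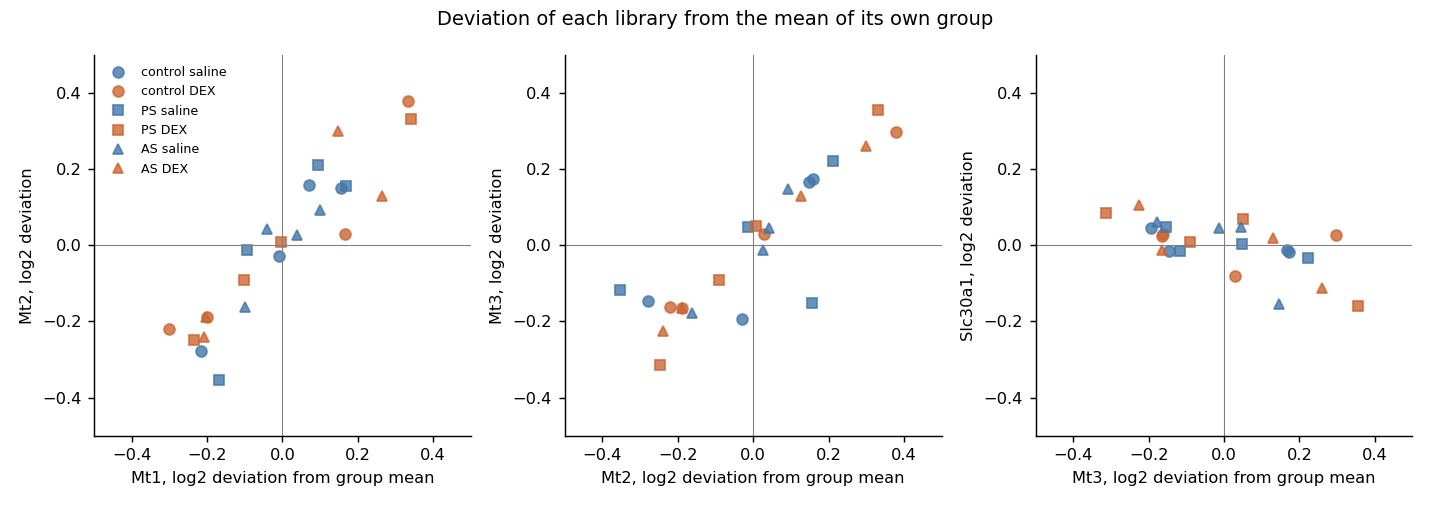
Deviation of each of the 24 libraries from the mean of its own group, in log2 normalized counts, for Mt2 against Mt1 (left, r = 0.92), Mt3 against Mt2 (centre, r = 0.88) and Slc30a1 against Mt3 (right, r = -0.64); circles are control, squares PS and triangles AS mice, blue saline and orange DEX. Metallothioneins rise and fall together from mouse to mouse within groups, and Slc30a1 varies less and in the opposite direction.

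Across all 24 libraries, with group differences left in, the genes whose log2 levels were most like Mt1 were Mt2 (Pearson r = 0.97), Htra1 (0.95), Sdc4 (0.94), Pnpla2 (0.93) and Ezr (0.93). For Mt2 they were Sdc4 (0.97), Mt1 (0.97), Htra1 (0.96), Cebpa (0.95) and Fzd2 (0.95). Htra1 encodes a secreted serine protease, Sdc4 a cell-surface heparan sulfate proteoglycan and Pnpla2 the lipase that starts the breakdown of stored fat. Each of these rose with DEX, with an averaged log2 change of 0.60 for Htra1, 0.88 for Sdc4 and 1.0 for Pnpla2. Within groups the likeness of Mt2 was 0.77 for Sdc4 and 0.78 for Htra1, below the 0.92 of Mt1. Mt3 ranked 2250 by likeness to Mt2 across all libraries (r = 0.31), against r = 0.88 within groups.

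Other genes of metal handling were followed through lists. Over all genes, DEX called 6.49% in either direction and 2.46% lower in control, 5.36% and 2.62% in PS, and 8.77% and 4.95% in AS mice, and nothing particular to a list is read from its count. Of 7 zinc exporters of the Slc30a family tested beside Slc30a1, 1 was called higher with DEX in control mice, 1 lower in PS and 1 lower in AS mice, and the median log2 change of the list lay between -0.05 and 0.01, beside -0.01 to 0.00 over all genes. Slc30a3, which loads zinc into synaptic vesicles, rose in control mice from 4631 ± 640 to 6269 ± 772 (SD, n = 4, log2 change 0.44, adjusted p = 0.00599). In PS and AS mice its log2 change was 0.23 (adjusted p = 0.232) and 0.21 (adjusted p = 0.227).

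Slc30a10, known as a manganese exporter, fell in PS mice from 644 ± 35.3 to 457 ± 54.9 (log2 change -0.50, adjusted p = 0.00905) and in AS mice from 632 ± 81.9 to 404 ± 44.2 (-0.64, adjusted p = 0.000803). In control mice it stood at 489 ± 46.7 with saline and 501 ± 70.8 with DEX (0.03, adjusted p = 0.95). The difference of the responses was -0.67 for AS minus control (adjusted p = 0.0954) and -0.53 for PS minus control (adjusted p = 0.352), and the former call held in 11 of 32 alternative settings. Of 11 zinc importers of the Slc39a family, Slc39a12 was called higher in control mice (log2 change 0.39, adjusted p = 0.00195, with -0.01 in PS and 0.09 in AS mice) and 0 were called in PS or AS mice with limma, and Slc39a10, which had the highest mean of the list, had log2 changes of 0.02, 0.01 and 0.00 in control, PS and AS mice.

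Of 13 copper genes, Cp, the copper-carrying ferroxidase ceruloplasmin, was called higher in control mice (0.87, adjusted p = 0.0287, with -0.07 in PS and -0.20 in AS mice) and none in PS or AS mice. Sod1, which carries copper and zinc and had the highest mean of the list, had log2 changes of -0.03, 0.06 and -0.02. Of 14 iron genes, the exporter Slc40a1 was called higher in control mice (0.54, adjusted p = 0.0381, with -0.14 in PS and -0.14 in AS mice). The metalloreductase gene Steap3 fell in PS (-0.73, adjusted p = 0.000566) and AS mice (-0.71, adjusted p = 0.000725), with -0.23 (adjusted p = 0.382) in control mice, and the ferritin light chain gene Ftl1 in AS mice (-0.27, adjusted p = 0.0971), with 0.11 in control and -0.06 in PS mice. The heavy chain gene Fth1 had log2 changes of 0.06, 0.05 and 0.01.

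Of 23 antioxidant genes, which include known targets of Nrf2, limma called 0 with DEX in control mice, 1 higher and 1 lower in PS and 1 higher and 2 lower in AS mice. Srxn1, which repairs oxidized peroxiredoxins, rose in PS (0.19, adjusted p = 0.0540) and AS mice (0.20, adjusted p = 0.0291), and its log2 change in control mice was 0.16 (adjusted p = 0.1002). The cystine transporter gene Slc7a11 fell in PS (-0.78, adjusted p = 0.0455) and AS mice (-0.77, adjusted p = 0.0358), with 0.14 (adjusted p = 0.849) in control mice, and Gsta4 fell in AS mice (-0.33, adjusted p = 0.0651), with 0.00 in control and -0.18 in PS mice. Differences of the DEX response between phenotypes were called with limma for none of the metal and antioxidant genes named here but Slc30a10. Gpx4 had log2 changes of -0.05, 0.03 and -0.06.

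Of 10 receptors and factors known to act upstream of metallothioneins, 1 was called higher in each phenotype. This was Cebpd, a C/EBP transcription factor, which rose from 74.2 ± 22.9 to 114 ± 24.3 in control (0.64, adjusted p = 0.0496), from 54.0 ± 15.3 to 106 ± 3.89 in PS (0.99, adjusted p = 0.00172) and from 77.5 ± 6.38 to 117 ± 14.7 in AS mice (0.58, adjusted p = 0.0648). The mineralocorticoid receptor gene Nr3c2 fell in all 3 (-0.29, -0.35 and -0.27, adjusted p = 0.0679, 0.0244 and 0.0878 in control, PS and AS mice). The glucocorticoid receptor gene Nr3c1 fell in control (-0.50, adjusted p = 0.00275) and PS mice (-0.38, adjusted p = 0.0296) and had a change of -0.28 (adjusted p = 0.105) in AS mice. Jak1 had log2 changes of -0.07, 0.02 and 0.07. Of the 4 label-check genes, Fkbp5, Tsc22d3 and Sgk1 rose in each phenotype (log2 changes of 1.91 to 2.26 for Fkbp5, 1.0 to 1.1 for Tsc22d3 and 0.67 to 0.81 for Sgk1), and Per1 was called in PS mice (0.30, adjusted p = 0.0403), with 0.21 in control and 0.12 in AS mice.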

How the data were processed

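Poly(A) RNA of the PFC of 24 mice was sequenced in strand-specific paired-end libraries. Per the submitters' processing notes, the authors used fastp 0.20.1, HISAT2 2.2.1 (mm10, GRCm38), featureCounts of Subread 2.0 and DESeq2 1.36.0. The deposited table holds a signal for each gene, its count as scaled by the authors with the size factor of the library. Whole reads were recovered for 100% of values within a tolerance of 0.01. The authors also deposited fold changes, p-values and adjusted p-values of their comparisons, which were not used.

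Groups came from the sample labels. The main test was limma 3.58.1 (R 4.3.3, eBayes trend) over log2(normalized count + 1) of 14074 genes in 24 libraries, calling an adjusted p under 0.1. It was tested on simulated data. Size factors are part of every value, so that a change is relative to the bulk of genes. Alternatives were a pseudocount of 8, genes with a mean of at least 100, genes with at least 10 reads in each library, quantile normalization, a covariate for log2 library size, a fit of only the groups compared, DESeq2 1.42.0, edgeR 4.0.16 and each library left out. The Mt1 to Mt2 ratio was tested with exact permutation.

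The genes described and the lists were chosen with earlier results of these data known. Named were the 5 genes, Fkbp5, per list the genes called in a DEX comparison (up to 4, by size of the averaged response) and the gene with the highest mean, and the 5 genes most correlated with Mt1 and with Mt2; others are marked where named. Some genes that these rules name are not reported here. Each library is 1 mouse, and replicate pairs differed by more than sampling noise (chi-square per gene of 5.74 to 81.8).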

Additional observations from a re-analysis of the deposited data

Results flagged for a closer look

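In 36 combinations of a gene or ratio and a group, 4 held a library that stood apart from the other 3 of its group by more than Dixon's 95% limit for the gap over the range, which chance alone crosses in about 1 in 20 groups. Slc30a1 accounted for 3 of the 4, and its other libraries lay close together. In saline control mice, mouse 109 read 957 normalized counts of Slc30a1 against 916 to 921 in the others. In DEX-treated control mice, mouse 122 read 954 against 1025 to 1030. In saline AS mice, mouse 44 read 844 against 969 to 979. For Mtf1, mouse 62 of the saline PS group read 826 against 884 to 896. Leaving out any of the 24 libraries in turn gave a PS to control log2 difference of Slc30a1 with saline of 0.17 to 0.20, with an adjusted p of 0.116 to 0.417.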

How the results depend on the processing

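Mt1 and Mt2 were called higher with DEX in control, PS and AS mice in 32 of 32 alternative settings each (Mt1 log2 change 0.44 to 0.79, highest adjusted p = 0.0885; Mt2 0.74 to 1.27, highest adjusted p = 0.00482), and averaged over phenotypes in 31 of 31. Mt3 and Mtf1 were called in none. In PS against control with saline, 1 of 5 genes, Slc30a1 (0.19, adjusted p = 0.0970), was called where only the groups compared were fitted; its cause was not tested. With the median in place of the mean, the DEX difference of the log2 Mt1 to Mt2 ratio was -0.55 in control, -0.28 in PS and -0.32 in AS mice (exact permutation p = 0.0571 each). With 1 library left out it ran from -0.55 to -0.48 in control, -0.35 to -0.25 in PS, -0.36 to -0.27 in AS mice and -0.39 to -0.36 over all. Without saline AS mouse 14 or 40 the AS difference was -0.30 or -0.32 (exact permutation p = 0.0571). No result changed direction among those called. Of the calls of list genes, Ftl1 in AS mice held in 14 of 32 settings, Nr3c2 in AS mice in 20, Cebpd in control in 25 of 31 and Srxn1 in PS mice in 25 of 32, while Srxn1 in control mice was called in 8 of 32. The count of all genes called ran, without leaving out libraries, from 745 to 1006 for DEX in control (913 in the main fit), 703 to 903 in PS (755), 753 to 1614 in AS (1234), 134 to 523 for PS against control with saline (213), 5 to 99 for AS against control (22), 0 to 225 (28) and 0 to 417 (122) for the same with DEX, 0 to 11 and 0 to 4 for AS against PS with saline and with DEX (0 each), 0 to 23 for the PS minus control response (0) and 1 to 439 for AS minus control (49). No paired analysis was possible because mouse numbers do not recur between groups. Every value of the 5 genes rests on at least 602 reads, and the shares of counting error and of variation between mice were not separated.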
